A study of Drosophila melanogaster with 34 samples.

Results

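The bithorax complex is a gene cluster on chromosome arm 3R of Drosophila melanogaster that holds the 3 homeotic genes Ubx, abd-A and Abd-B. The peaks described here are all those of 5 ChIP-seq peak lists that lie wholly in a stretch of 330 kb of 3R that begins at position 12480001 of the dm3 assembly. They were taken by position and not by a measured value, although the region was chosen with earlier results of these data known. They came to 154 of the 47852 peaks that the 5 lists hold on the chromosome arms: 20 of 9593 in the S2 Crol list, 31 of 9883 in the crol-KO Crol list, 35 of 10139 in the WT Crol list, 30 of 9299 in the crol-KO Cg list and 38 of 8938 in the WT Cg list.

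Homeotic genes encode transcription factors that set the identity of body segments, and those of the bithorax complex act in the posterior thorax and the abdomen. Ubx specifies the segment that carries the halteres, abd-A the anterior and middle abdomen, and Abd-B the posterior abdomen and genitalia. In cells where they are off, they are kept off by Polycomb group (PcG) proteins, which are brought to DNA elements called PREs by sequence-specific proteins. Crooked legs (Crol) is a C2H2 zinc finger protein first known from the ecdysone response at metamorphosis, and Combgap (Cg) is a zinc finger protein that takes part in PcG recruitment.

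ChIP-seq was performed on cultured S2 cells, a line of embryonic origin, and on imaginal discs and brains of 3rd instar larvae, with 10 larvae pooled per sample. The larvae were crol-KO, in which CRISPR/Cas9 had deleted the crol gene and put a DsRed marker in its place in a stock kept over a CyO balancer, or WT. Crol was precipitated with the CrolN antibody, raised against residues 1 to 188 of isoform PA, in S2 cells, crol-KO and WT, and Cg was precipitated in crol-KO and WT. Each of these 5 groups had 2 of the 34 samples of the series, and the other 24 were not analysed here. The titles name S2 cells for the S2 samples although their tissue label names discs and brains. The study saw faint Crol bands in crol-KO extracts and proposed that they are maternal protein, so crol-KO may model reduced rather than absent Crol. A peak list checks neither the knockout nor the tissue.

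The authors pooled the reads of both replicates before calling peaks, so each group gave 1 list. No difference between groups given here had a replicate check or a p-value. The study made its own differential binding analysis, which was not used here. It reported lower Crol in crol-KO at a single characterized PRE of Abd-B, without a significant change of Cg there. It also reported lower Crol upstream of the Ubx promoter, but not at the bx and bxd PREs. Peaks here were not matched to these elements. Intervals of shares and of the ratios at single peaks are 95% intervals for counting error only. Those of medians are 95% order-statistic intervals over peaks. They describe the spread between peaks, which are not replicates of a genotype. As worked out from the values of the peaks, about 5.77 M reads lay behind the S2 Crol list, 4.89 M behind the crol-KO Crol list, 4.24 M behind the WT Crol list, and 3.57 and 3.42 M behind the Cg lists of crol-KO and WT. In the complex no peak number was skipped in any list, while 102 to 112 numbers per list were skipped elsewhere on 3R, and those peaks were not analysed here.

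No dm3 gene annotation was used, so peaks were not assigned to genes or to known PREs. In the RefSeq gene table of Release 6, Ubx lies at the low-coordinate end of the complex, followed by the bxd and neighbouring noncoding genes, abd-A, the iab noncoding genes with the iab-4 and iab-8 microRNAs, and Abd-B at the high-coordinate end. Every list had peaks in each 110 kb of the complex, and the high-coordinate part held the most. Single lists also had long stretches without a peak. The longest was 46.1 kb in the S2 Crol and crol-KO Crol lists, 33.8 kb in the WT Crol and crol-KO Cg lists, and 28.2 kb in the WT Cg list. The highest 110 kb held 10 of 20 S2 Crol peaks, 14 of 31 crol-KO Crol peaks, 16 of 35 WT Crol peaks, 15 of 30 crol-KO Cg peaks and 19 of 38 WT Cg peaks. The lowest 110 kb held 4 Crol peaks in S2 cells, 8 in crol-KO and 9 in WT, and 8 Cg peaks in each genotype.

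**Figure D1:**
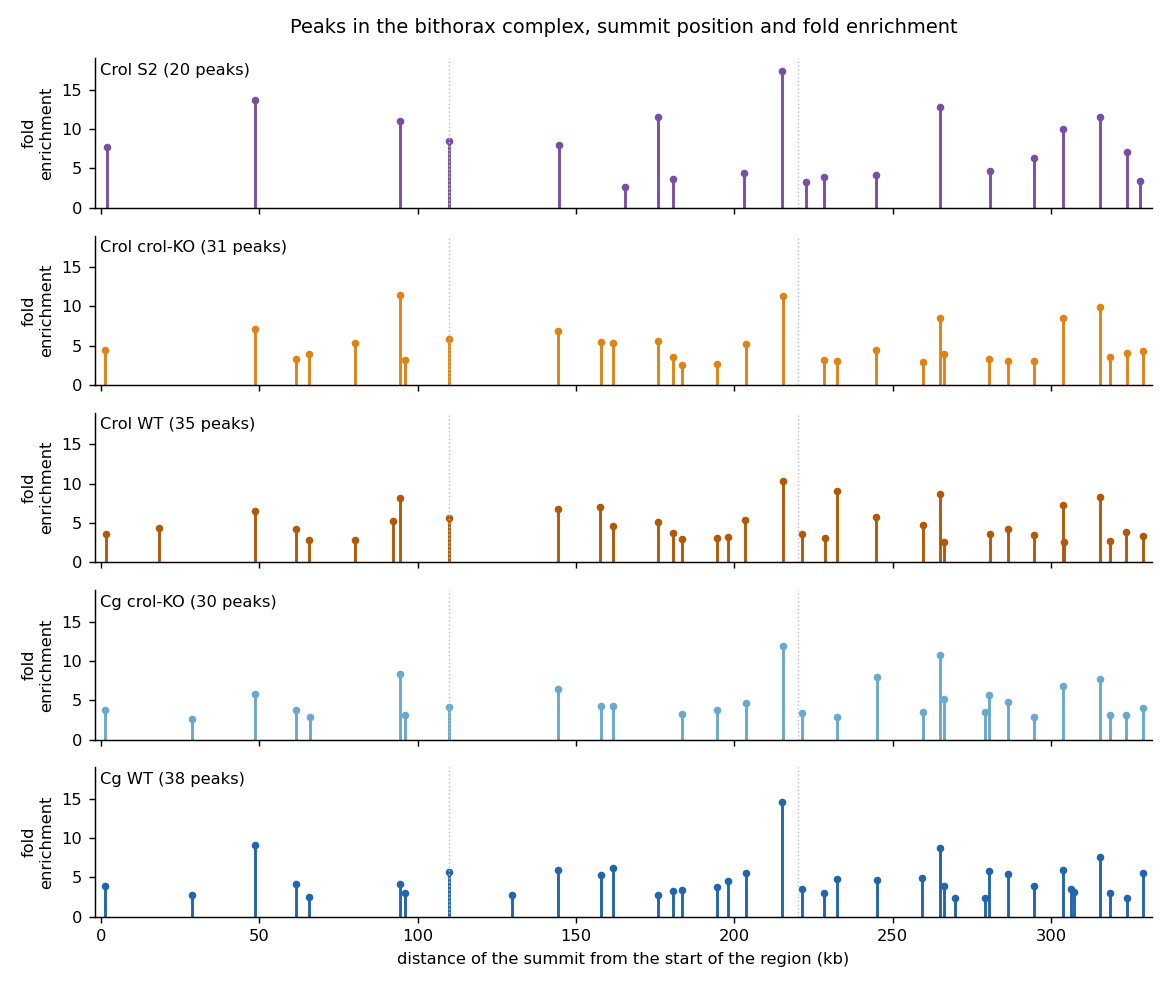
Each vertical line is a peak of the bithorax complex, placed at the distance of its summit from the start of the region (x axis, kb) and as high as its fold enrichment over local background (y axis), with a row for each list; dotted lines part the region into stretches of 110 kb. The tallest line of the S2 Crol, WT Crol and both Cg rows stands at about 215 kb, with fold enrichments of 17.4, 10.3, 11.9 and 14.6.

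Peaks were short and covered a small part of the region. Their median width was 564 bp in the S2 Crol list, 515 and 501 bp in the Crol lists of crol-KO and WT, and 526 and 454 bp in the Cg lists of crol-KO and WT. Peaks covered 3.86% of the region in S2 cells, 6.18% and 6.50% for Crol in crol-KO and WT, and 5.96% and 6.72% for Cg in crol-KO and WT. Neighbouring S2 summits lay a median of 13936 bp apart in the complex, against 5013 bp on the rest of 3R. The corresponding distances for Crol were 10165 and 6464 bp in crol-KO and 7478 and 6300 bp in WT. For Cg they were 10940 and 6585 bp in crol-KO and 6254 and 6659 bp in WT. Only the WT Cg summits thus had a shorter median spacing in the complex than on the rest of 3R. A median spacing does not give the density of peaks, which is compared by window below. The 3 longest stretches with no peak in any list from discs and brains ran from 12590245 to 12609663, from 12508992 to 12528370 and from 12482313 to 12497878, which are 19.4, 19.4 and 15.6 kb, and S2 cells had 0 peaks in each of them.

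The peaks of the complex were set against the other 82 windows of 330 kb tiled over 3R from this region. By number of peaks the complex lay within the range of the other windows in every list, and it stood near the top only for WT Cg. For Crol in S2 cells its 20 peaks were fewer than in 55 of the 82 windows, whose median was 25.5. For Crol in crol-KO, 22 windows held more than its 31 peaks, and in WT 15 windows held more than its 35. The median window held 27 Crol peaks in each genotype. For Cg in crol-KO, 18 windows held more than its 30 peaks, and in WT 3 windows held more than its 38. The median window held 25 Cg peaks in each genotype.

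By median strength the complex stood higher than by number in the 3 Crol lists, and not in the Cg lists. Fold enrichment is the authors' ratio of the summit pileup to the local background. It was ranked within a list, and folds of different lists are given side by side only as a description. The median of the S2 Crol peaks was 7.46 in the complex, above all 82 other windows, whose medians lay between 3.47 and 6.40. The median of the WT Crol peaks was 4.27, also above all 82, which lay between 2.69 and 4.08. For Crol in crol-KO the median was 4.27, and 3 windows lay above it. For Cg the medians were 4.07 in crol-KO and 4.06 in WT, with 26 and 6 windows above. Over all peaks on the rest of 3R the medians were 4.48 for Crol in S2 cells, 3.55 and 3.36 for Crol in crol-KO and WT, and 3.88 and 3.59 for Cg in crol-KO and WT.

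The number of strong peaks was counted as well. Of the 35 WT Crol peaks of the complex, 9 were among the strongest 10% of their list (25.7%, against 8.76% on the rest of 3R), more than in any other window. Of the 31 crol-KO Crol peaks 7 were (22.6%, against 9.33%), and of the 20 S2 peaks 7 were (35%, against 9.14%), with 1 window above in each case. For Cg the strongest 10% held 6 of 30 peaks in crol-KO (20%, against 9.10%) and 5 of 38 in WT (13.2%, against 8.75%). By this count 1 window lay above the complex for Cg in crol-KO and 2 for Cg in WT. The local background under the peaks of the complex, over the genome-wide background of the list, had a median between 1.34 and 1.58 in the 5 lists, against 1.66 to 1.84 on the rest of 3R. The part of this lower background in the fold enrichments was not tested. In summit reads per 1 M reads of the list (RPM), which are not divided by it, the medians were 24.0 in the complex and 19.6 on the rest of 3R for S2 Crol, 18.2 and 15.3 for crol-KO Crol, 16.0 and 15.1 for WT Crol, 17.3 and 16.8 for crol-KO Cg, and 16.5 and 16.4 for WT Cg.

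**Figure D2:**
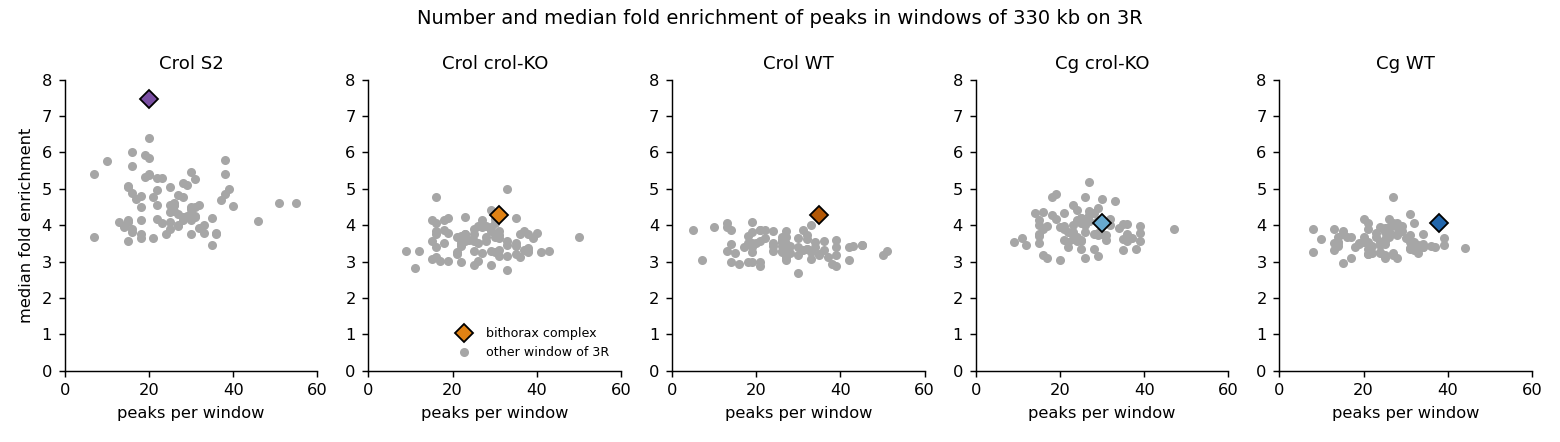
Each grey point is one of the other 82 windows of 330 kb on 3R and the diamond is the bithorax complex, with the number of peaks on the x axis, their median fold enrichment on the y axis and a panel for each list. The diamond lies above every grey point for Crol in S2 cells (7.46) and for Crol in WT (4.27), while its number of peaks lies within the range of the other windows in all 5 panels.

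Peaks of the 5 lists that overlapped by at least 1 bp were joined to 44 sites. A peak was present in all 5 lists at 14 sites, which is 31.8% (18.6 to 47.6), against 32.7% of the 3335 sites on the rest of 3R. At 12 sites the 4 lists from discs and brains had a peak and S2 cells did not, which is 27.3% (15.0 to 42.8), against 12.8%. Only 1 of the 82 other windows held more such sites, and their median was 4. Sites found only in S2 cells were 3, or 6.82% (1.43 to 18.7), against 19.1%, and 66 windows held more. Sites found only in the WT Cg list were 4, or 9.09% (2.53 to 21.7), against 1.02%, and no other window held more than 3.

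**Figure D3:**
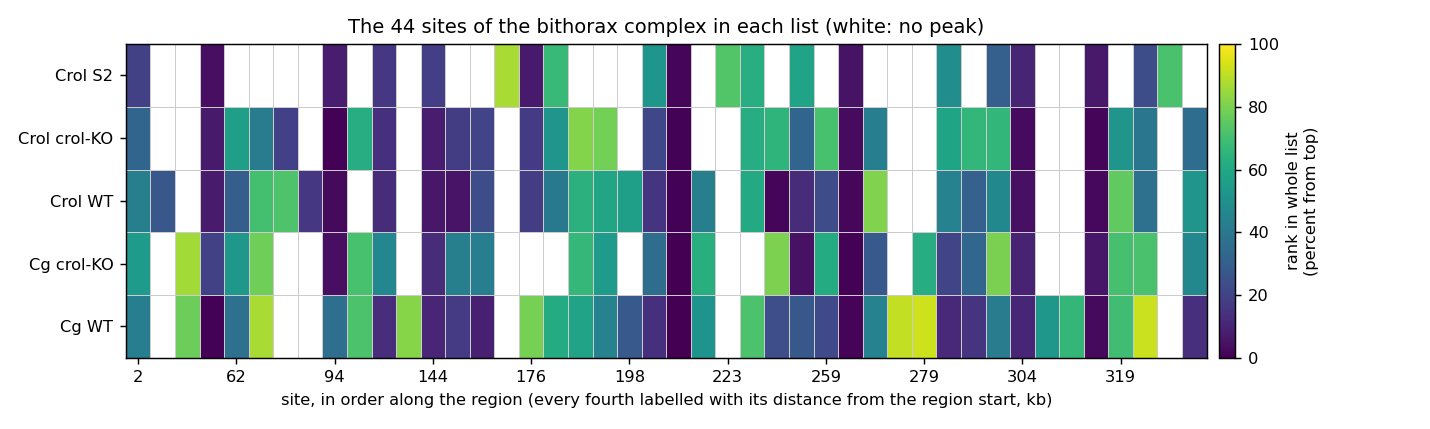
Columns are the 44 sites in order along the region and rows the 5 lists; colour gives the rank of the peak in its whole list as a percent from the top, and white means no peak. The dark columns are sites that were strong in several lists, among them 3 that were in the strongest 10% of all 5.

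The strongest site of the complex spanned 12694723 to 12695583, close to the border between its middle and its highest 110 kb. The fold enrichment was 17.4 in S2 cells, 11.3 and 10.3 for Crol in crol-KO and WT, and 11.9 and 14.6 for Cg in crol-KO and WT. It was the 17th peak of the whole crol-KO Cg list and the 3rd of the whole WT Cg list. In the whole Crol lists it ranked 55 in crol-KO and 49 in WT. The 5 summits lay within 56 bp of each other.

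Near 265 kb from the start, the site from 12744586 to 12745250 had fold enrichments of 12.8 in S2 cells, 8.51 and 8.73 for Crol in crol-KO and WT, and 10.8 and 8.78 for Cg in crol-KO and WT. It ranked 48 and 86 in the whole Cg lists of crol-KO and WT. At the high-coordinate end, the site from 12795035 to 12796351 had 11.5 in S2 cells, 9.89 and 8.36 for Crol in crol-KO and WT, and 7.66 and 7.61 for Cg in crol-KO and WT. These 3 sites were in the strongest 10% of all 5 lists.

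The following sites were in the strongest 10% of 4 lists. The site from 12528371 to 12529110 had a fold enrichment of 13.7 in S2 cells, 7.15 and 6.56 for Crol in crol-KO and WT, and 5.75 and 9.15 for Cg in crol-KO and WT. It ranked 1794 in the whole crol-KO Cg list and 59 in that of WT, but its local background was 6.34 RPM in crol-KO and 4.81 RPM in WT, and its pileup ratio of crol-KO over WT was 0.813 (0.642 to 1.03), an interval that holds 1, or 0.764 (0.603 to 0.967) after scaling to the median ratio of the arms. The site from 12783407 to 12784499 had 10.0 in S2 cells, 8.51 and 7.35 for Crol in crol-KO and WT, and 6.85 and 5.92 for Cg in crol-KO and WT, and here the WT Crol list had a pair of neighbouring peaks under the single crol-KO one. The site from 12574167 to 12575073 had the highest crol-KO Crol fold of the complex, 11.5, beside 8.12 in WT and 11.1 in S2 cells, and its Cg fold was 8.28 in crol-KO and 4.21 in WT. Of the 12 sites in the strongest 10% of at least 1 list, 8 had a peak in all 5 lists.

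The other 8 sites held by all 5 lists were in the strongest 10% of at most 2 lists. Those from 12589255 to 12590244 and from 12624003 to 12624918 had Crol folds of 8.44 and 7.96 in S2 cells, 5.88 and 6.82 in crol-KO, and 5.69 and 6.84 in WT. At the low-coordinate border, the site from 12480835 to 12482312 had Crol folds of 7.78, 4.43 and 3.64 in S2 cells, crol-KO and WT. The site from 12682711 to 12683895 had 4.48, 5.19 and 5.32 in the same order. At 12724148 to 12725966 the Crol folds were 4.13, 4.43 and 5.70, and the Cg folds were 7.98 in crol-KO and 4.64 in WT. The sites from 12759897 to 12760965, from 12774255 to 12774756 and from 12803586 to 12804059 had larval Crol folds between 3.04 and 4.08. Over all 14 sites the median fold was 8.20 for Crol in S2 cells, 6.35 and 6.13 for Crol in crol-KO and WT, and 6.10 and 5.76 for Cg in crol-KO and WT. At the 12 sites held by the 4 lists from discs and brains only, the medians were 3.43 and 3.77 for Crol and 3.77 and 4.48 for Cg in crol-KO and WT.

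The comparison of crol-KO with WT asks which Crol and Cg positions of the complex remained when crol was deleted. In crol-KO, 30 of the 31 Crol peaks lay on one of WT, or 96.8% (83.3 to 99.9), against 82.6% on the rest of 3R. In WT, 31 of the 35 Crol peaks lay on one of crol-KO, or 88.6% (73.3 to 96.8), against 83% on the rest of 3R. Most Crol positions of the complex were therefore in the lists of both genotypes. The counting interval holds the share of the arm in the WT direction and lies just above it in the crol-KO direction.

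The 4 Crol peaks of WT that were absent from crol-KO had no Crol peak of that genotype within 1000 bp either. The strongest spanned 12571771 to 12572316, with a fold of 5.28, rank 1592 of its list and a pileup of 75 reads over a background of 13.4. No other list had a peak there, although the strong site that begins at 12574167 lay 1.85 kb away. The next, from 12497879 to 12498424, had a fold of 4.40 and was likewise in no other list, and the nearest crol-KO Crol peak was 15.6 kb away. The one from 12701244 to 12701662 had a fold of 3.64 and overlapped Cg peaks of both genotypes, with Cg folds of 3.43 in crol-KO and 3.57 in WT. At the one from 12677718 to 12678100, with a fold of 3.19, Cg was absent from the crol-KO list too, and its WT Cg fold was 4.60. So these 4 positions held 3 different states of Cg: no Cg peak, Cg peaks in both genotypes, and a Cg peak in WT alone. The single crol-KO Crol peak without a WT peak spanned 12575767 to 12576138, had a fold of 3.15 and overlapped Cg peaks of both genotypes, and the nearest WT Crol peak was 0.693 kb away.

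For Cg, too, a larger share of crol-KO peaks than of WT peaks was shared between genotypes, and here the WT share lay below that of the arm. All 30 Cg peaks of crol-KO lay on one of WT, a share of 100% (88.4 to 100), against 84.4% on the rest of 3R. Only 30 of the 38 Cg peaks of WT lay on one of crol-KO, or 78.9% (62.7 to 90.4), against 88.9% on the rest of 3R. Of the 82 other windows, 75 kept a higher share of their WT Cg peaks. Among WT Cg peaks in the weaker 50% of the list, 8 of 15 were kept in the complex (53.3%), against 78.7% on the rest of 3R. No interval was worked out for this small subset. With only peaks of −log10 q of at least 5 in both lists, the share of WT Cg peaks kept in the complex was 81.8%. The counting interval for all peaks of the complex holds the share of the arm in the WT direction and does not in the crol-KO direction.

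The 8 WT Cg peaks absent from the crol-KO Cg list fell into 3 kinds. At 4 positions no other list had a peak. They spanned 12786023 to 12786350 with a fold of 3.54, 12787084 to 12787431 with 3.14, 12609664 to 12610009 with 2.71, and 12749414 to 12749713 with 2.44. At 12655774 to 12656150, 12660311 to 12660653 and 12708173 to 12708574, with WT Cg folds of 2.78, 3.28 and 2.98, Crol had a peak in S2 cells, in crol-KO and in WT. Such sites, with Crol in all 3 lists and Cg in WT alone, were 3 of 44 in the complex, or 6.82%, against 0.42% on the rest of 3R. At these 3 the Crol pileup in RPM, as the ratio of crol-KO over WT, was 1.08 (0.848 to 1.37), 0.886 (0.580 to 1.35) and 1.11 (0.791 to 1.56), and all 3 intervals hold 1. The remaining peak is the one at 12677665 to 12678093 that was lost with Crol. The 8 summits had pileups of 26 to 57 reads in WT, and the lowest pileup of any peak of the Cg lists was 20 reads in crol-KO and 21 in WT. A call also depends on the local background. The summits with 57 and 53 reads lay on backgrounds of 19.8 and 17.1 reads. The peaks that begin at 12609664 and 12749414 had a −log10 q of 4.98 and 3.67, below the stricter threshold of 5. The part of detection in their absence was not tested.

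A peak list counts a position as kept however much the signal changed, so the pileup at the summit in RPM was compared at shared peaks. These ratios are relative to the depth of each list and leave out peaks called in a single genotype. They therefore do not measure a general change of Crol or Cg between genotypes, and a median near 1 does not show that there was none. Both medians were close to those of the rest of 3R. At the 30 shared Crol peaks the ratio of crol-KO over WT had a median of 1.06 (0.926 to 1.18), where 1825 pairs on the rest of 3R had 1.08. At the 30 shared Cg peaks it was 1.01 (0.845 to 1.15), where 1781 pairs had 1.06. The counting interval of the ratio held 1 for 25 Crol pairs, lay above 1 for 3 and below for 2, and for Cg it held 1 for 27, lay above for 2 and below for 1. After division by the median ratio over all shared peaks of the arms, 1 Crol interval lay above 1 and 3 below, and 1 Cg interval lay above and 2 below. No adjustment was made for the number of pairs.

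The largest difference for Crol was at the site from 12712054 to 12712654. Crol had 60 reads at the summit in crol-KO and 142 in WT, or 12.3 and 33.5 RPM, a ratio of 0.367 (0.266 to 0.499). The local background was 3.87 RPM in crol-KO and 3.46 in WT. Its fold was 3.06 in crol-KO, rank 6442, against 9.11 in WT, rank 128. Only 0.751% of the 7992 shared Crol peaks of the arms had a lower ratio. Cg at the same site had 11.2 RPM in crol-KO and 17.5 in WT, a ratio of 0.639 (0.417 to 0.969), and 1.20% of the 7763 shared Cg peaks of the arms lay lower. This was the lowest ratio of the complex for both proteins, and S2 cells had no peak there.

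A higher summit RPM in crol-KO was clearest at 12559993 to 12560537, the one site of the complex with Crol in both larval lists and Cg in neither. Crol had 27.2 RPM in crol-KO and 16.0 in WT, a ratio of 1.70 (1.26 to 2.31), and its rank was 1889 in crol-KO and 7297 in WT. For Cg the highest ratio was at the site that begins at 12574167, with 28.5 RPM in crol-KO and 18.1 in WT, a ratio of 1.58 (1.14 to 2.2). Crol there had 44.8 RPM in crol-KO and 36.5 in WT, a ratio of 1.23 (0.993 to 1.52). At 12724148 to 12725966 Cg was higher in crol-KO, with 34.1 RPM in crol-KO and 24.2 RPM in WT, a ratio of 1.41 (1.06 to 1.88), whose interval held 1 after scaling to the median of the arms. Crol at that site had 20 RPM in crol-KO and 25.9 RPM in WT, a ratio of 0.773 (0.583 to 1.02). After scaling the Crol ratio was 0.717 (0.541 to 0.951), an interval below 1. The ratios of the proteins thus lay on opposite sides of 1. Of the 26 sites with a pair for both proteins, 12 had both ratios on the same side of 1 after scaling to the median of the arms.

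Before scaling, the other Crol ratios whose intervals did not hold 1 were 1.26 (1.03 to 1.56) at the site that begins at 12528371, 1.46 (1.03 to 2.09) at the one that begins at 12641325, and 0.673 (0.459 to 0.982) at the one that begins at 12739199. The intervals of the first and the second of these held 1 after scaling, that of the last did not. The strongest site of the complex changed little, with 62.5 RPM for Crol in crol-KO and 53.0 in WT, a ratio of 1.18 (0.99 to 1.41), and with 65.2 for Cg in crol-KO and 73.0 in WT, a ratio of 0.893 (0.744 to 1.07).

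**Figure D4:**
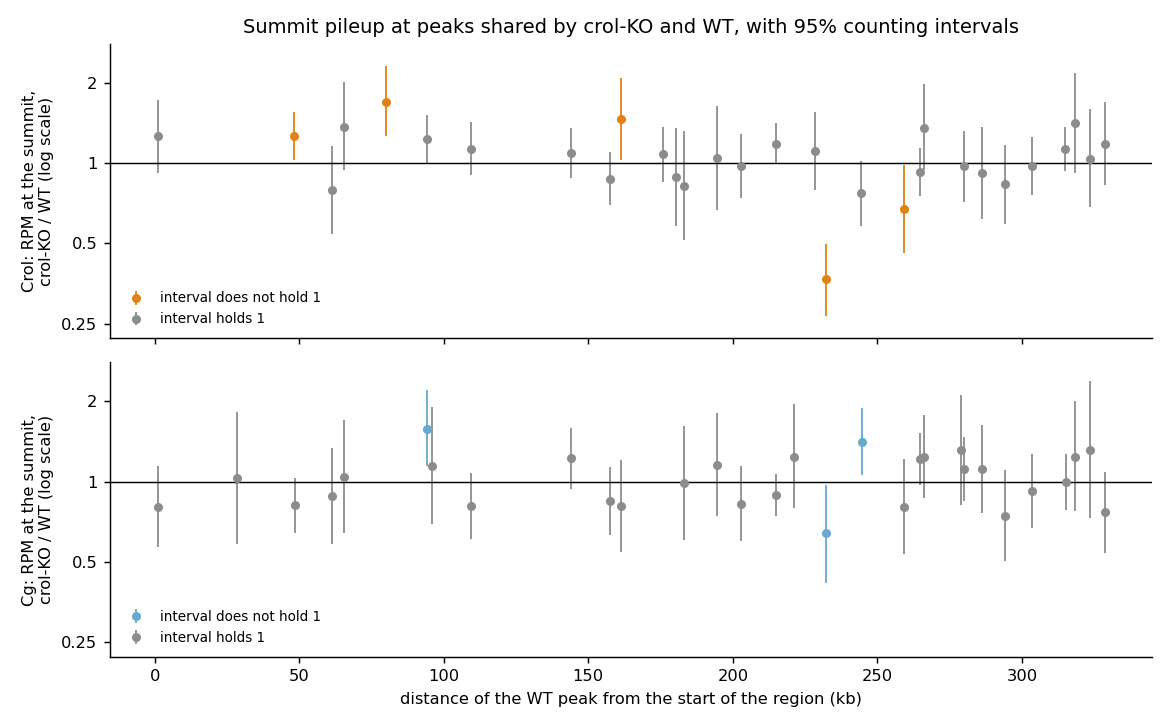
Each point is a peak shared by crol-KO and WT, with the distance of the WT peak from the start of the region on the x axis (kb) and the ratio of RPM at the summit, crol-KO over WT, on a log2 y axis; bars are 95% counting intervals of 1 pooled list per genotype. Most bars hold 1 for Crol (25 of 30, upper panel) and for Cg (27 of 30, lower panel), and the lowest point of both panels is the same site at 232 kb, with 0.367 for Crol and 0.639 for Cg.

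Crol and Cg were at the same positions for the most part in both genotypes. In crol-KO, Cg was called under 27 of 31 Crol peaks, or 87.1% (70.2 to 96.4), against 86.1% on the rest of 3R, and Crol under 27 of 30 Cg peaks, or 90% (73.5 to 97.9), against 90.8%. In WT, Cg was called under 32 of 35 Crol peaks, or 91.4% (76.9 to 98.2), against 77.9% on the rest of 3R, and Crol under 31 of 38 Cg peaks, or 81.6% (65.7 to 92.3), against 86%. The counting interval of the WT Crol share just holds that of the arm.

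The 3 WT Crol peaks without Cg in WT were those at 12571771, 12497879 and 12559993 described above. In crol-KO the Crol peaks without Cg were those at 12655713, 12560053, 12660339 and 12708243, with folds of 5.54, 5.39, 3.5 and 3.15. Cg without Crol in either genotype was called at 2 positions in both genotypes. The site from 12508662 to 12508991 had Cg folds of 2.63 in crol-KO and 2.82 in WT, and the site from 12758999 to 12759473 had 3.45 in crol-KO and 2.39 in WT. Where peaks of both proteins overlapped, their summits lay close together: the median distance of the Crol from the Cg summit was 30 bp (19 to 45) over 27 pairs in crol-KO and 37.5 bp (20 to 59) over 32 pairs in WT, against 37 and 41 bp on the rest of 3R. Between genotypes the median shift was 27.5 bp for Crol (20 to 50) and 27.5 bp for Cg (13 to 36), over 30 pairs each.

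The comparison of S2 cells with discs and brains asks how far Crol positions in the complex were shared between a cell line and larval tissue. The S2 list was short in the complex and most of it was shared. Of the 20 S2 peaks, 17 overlapped a crol-KO Crol peak and 17 a WT Crol peak, both 85% (62.1 to 96.8), against 62.8% and 58.2% on the rest of 3R. In the other direction, S2 cells had a peak under 17 of 31 Crol peaks of crol-KO, or 54.8% (36.0 to 72.7), against 62.8%, and under 17 of 35 of WT, or 48.6% (31.4 to 66.0), against 58.3%. The intervals of the last pair of shares hold the shares of the arm. The S2 share in WT has its lower bound above 58.2%, and its share in crol-KO has it slightly below 62.8%.

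The 3 S2 peaks in no larval list spanned 12807924 to 12808315 with a fold of 3.39, 12702393 to 12702769 with 3.32, and 12645267 to 12645566 with 2.66, and ranked in the weaker 50% of the S2 list. The strongest WT Crol peaks absent from S2 cells ranked higher. The site from 12712054 to 12712641 ranked 128 of the WT list, and the one from 12637350 to 12638100, with a fold of 6.98, ranked 549. That site had a Crol fold of 5.51 in crol-KO and Cg folds of 4.24 in crol-KO and 5.26 in WT. It was followed by the WT Crol peak at 12571771 and by those at 12739200 and 12641345, with folds of 5.28, 4.68 and 4.65. One site was strong in S2 cells and weak for Cg: from 12655684 to 12656245 the Crol fold was 11.5 in S2 cells, 5.54 in crol-KO and 5.07 in WT, while Cg had no peak in crol-KO and a fold of 2.78 in WT. Among WT Crol peaks in the weaker 50% of the list, 1 of 10 had an S2 peak in the complex (10%), against 48.2% on the rest of 3R. No interval was worked out for this small subset.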

How the data were processed

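ChIP-seq peak lists of 5 groups were analysed. As the study's methods and processing notes give it, the authors trimmed reads with Trim Galore 0.6.5, aligned them to dm3 with Bowtie2 2.3.5, removed duplicates with SAMtools 1.13, pooled replicates, and called narrow peaks with MACS2 2.2.5 at a q-value of 0.05 with reads extended to 300 bp. The deposited columns hold the authors' score (a rounded-down 10-fold of the −log10 q), the fold enrichment at the summit (a ratio of pileup to local background), its −log10 p-value and −log10 q-value, and the position of the summit within the peak. Values of a list depend on its depth and background, so folds were ranked within a list, those of different lists stand side by side as a description, and genotypes were compared by pileup per 1 M reads.

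Peaks were taken by position and counted from 1. The rank is by fold enrichment over X, 2L, 2R, 3L, 3R and 4. Pileup and background were solved from fold enrichment and p-value for 100% of peaks in the complex, within a relative 0.001. The depth came from the lowest background, 300 bp reads and a genome of 120 Mb. Overlap needed 1 bp. Intervals for shares are Clopper-Pearson, those for ratios are exact binomial intervals of the 2 pileups, and those for medians are order-statistic intervals. The tools were Python 3.11.15, numpy 2.4.6, pandas 2.3.3, scipy 1.17.1 and matplotlib 3.10.9. The functions were tested on simulated data. The region, the sites named (those in all 5 lists, the strongest in each list, and peaks absent from a compared list) and the comparisons were chosen with earlier results of these data known. Other sites with pileup ratios whose intervals did not hold 1 were named after their values were seen. Alternatives covered thresholds, overlap, windows, ranking and scaling. A search for G runs at summits was not made, since no dm3 genome was used.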

Additional observations from a re-analysis of the deposited data

How the results depend on the processing

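Across 94 alternatives for 38 results, 92 stayed within the interval, or within 1.5 times the count, of the value reported. With only peaks of −log10 q of at least 5, 90.2% of the other 3R windows held fewer WT Crol peaks than the complex, against 79.3% with all peaks. With a peak within 1000 bp counted as shared, 100% of crol-KO Crol peaks of the complex had a WT Crol peak, against 96.8%. The single crol-KO Crol peak without an overlapping WT peak had one 0.693 kb away, so it counted as shared within that distance. The cause of the higher share of windows at the stricter threshold was not tested. The standing of the complex among windows by median fold was given no alternative. Ranked by −log10 q and not by fold, its peaks had a lower median standing in every list. As a percent from the top, this was 28.5 against 21.3 for S2 Crol and 39.6 against 35.3 for crol-KO Crol. It was 40.2 against 29.5 for WT Crol, 48.8 against 46.3 for crol-KO Cg and 42.3 against 39.2 for WT Cg. Peak numbers skipped in the lists, counted in the window where they fall (an alternative chosen after seeing the data), left 26.8% of windows below the complex in the S2 list and 59.8% to 93.9% in the larval lists. No paired analysis was possible because the reads of the replicates had been pooled before peak calling, and for the same reason no replicate could be left out. The alternative for G runs at summits was not run. At depths of 3.42 to 5.77 M reads, the lowest pileup of a called peak was 20 to 28 reads in the 5 lists, and the absence of a weak peak from a list is not the absence of binding.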
